A study of Mus musculus with 8 samples.

Results

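Cyclic nucleotide signalling genes are the genes of the enzymes that make, break down and read out cyclic AMP and cyclic GMP. The group taken here holds adenylyl cyclases (symbols Adcy with a digit), phosphodiesterases (Pde with a digit), catalytic and regulatory subunits of protein kinase A (Prkac and Prkar), cGMP-dependent kinases (Prkg) and A-kinase anchoring proteins (Akap with a digit), without Pde10a, Akap5 and Akap7. Of 55 such genes in the table, 48 had a mean normalized count of at least 10 and form the group, out of 26229 genes in all. RNA was sequenced from primary cortical neurons taken from mouse embryos at E16.5 and cultured for 12 days. In 4 libraries the neurons were wild type, and in 4 they carried the H2BE-KO/mCherry-KI genotype, in which the gene of the histone variant H2BE, H2bc21, is knocked out with mCherry knocked in. The labels call the libraries biological replicates but do not tie them to separate animals, litters or sexes, so the p-values measure the spread between these libraries only.

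Adenylyl cyclases turn ATP into cyclic AMP, mostly under the control of G proteins, and guanylyl cyclases make cyclic GMP. Cyclic AMP releases the catalytic subunits of protein kinase A (PKA) from its regulatory subunits, while anchoring proteins hold the kinase at particular sites in the cell and phosphodiesterases end the signal. In cortical neurons the pathway carries dopamine, noradrenaline and adenosine signals to ion channels, synapses and the transcription factor CREB, which binds the cAMP response element.

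Every fold change, standard error (SE) and adjusted p comes from the authors' deposited table of a DESeq2 comparison and is written as knockout over wild type. A gene is called higher or lower at an adjusted p under 0.05. The direction was read from the targeted gene, whose log2 fold change is then -3.45 (SE 0.19), as the table's header does not state it. If it ran the other way, every higher and lower would swap. Values per library were not analysed here. The level given for each genotype is the one implied by the mean normalized count over all 8 libraries and the fold change. It carries the errors of both, of which only that of the fold change is known. RNA came from whole cultures, in which fewer cells of a type and less RNA per cell cannot be told apart.

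The knockout differed from wild type in 15 of the 48 genes, 9 higher and 6 lower. That is 31.2% of the group, against 24.9% of all 15459 tested genes with a mean count of at least 10, of which 12.6% were called higher and 12.3% lower. All 15 had a mean count of at least 100. Among the 43 genes at that level they made up 34.9%, against 28.8% of all genes at that level, so the share called lay near the background. The median log2 fold change was 0.06, against -0.02 over all tested genes with a mean count of at least 10. Higher genes were Adcy1, Adcy2, Adcy6, Adcy7, Pde1a, Pde2a, Pde7a, Prkar2b and Akap12. Lower genes were Pde1c, Pde3a, Pde4d, Pde5a, Prkar1a and Prkg2. Changes ran from a log2 fold change of -1.50 for Prkg2 to 1.65 for Adcy7 among the called genes, and 2 of the higher and 4 of the lower reached a log2 change of 1. The calls depended on the null distribution. At an unadjusted p under 0.05 the deposited DESeq2 test gave 23 of the 48. When the Wald statistics were read against a t with 6 degrees of freedom, 0 of the 48 passed after adjustment (17 unadjusted), as did 0.00553% of all tested genes. Against a null fitted to the statistics themselves, 0 passed (9 unadjusted), as did 0.409% of all tested genes.

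**Figure D1:**
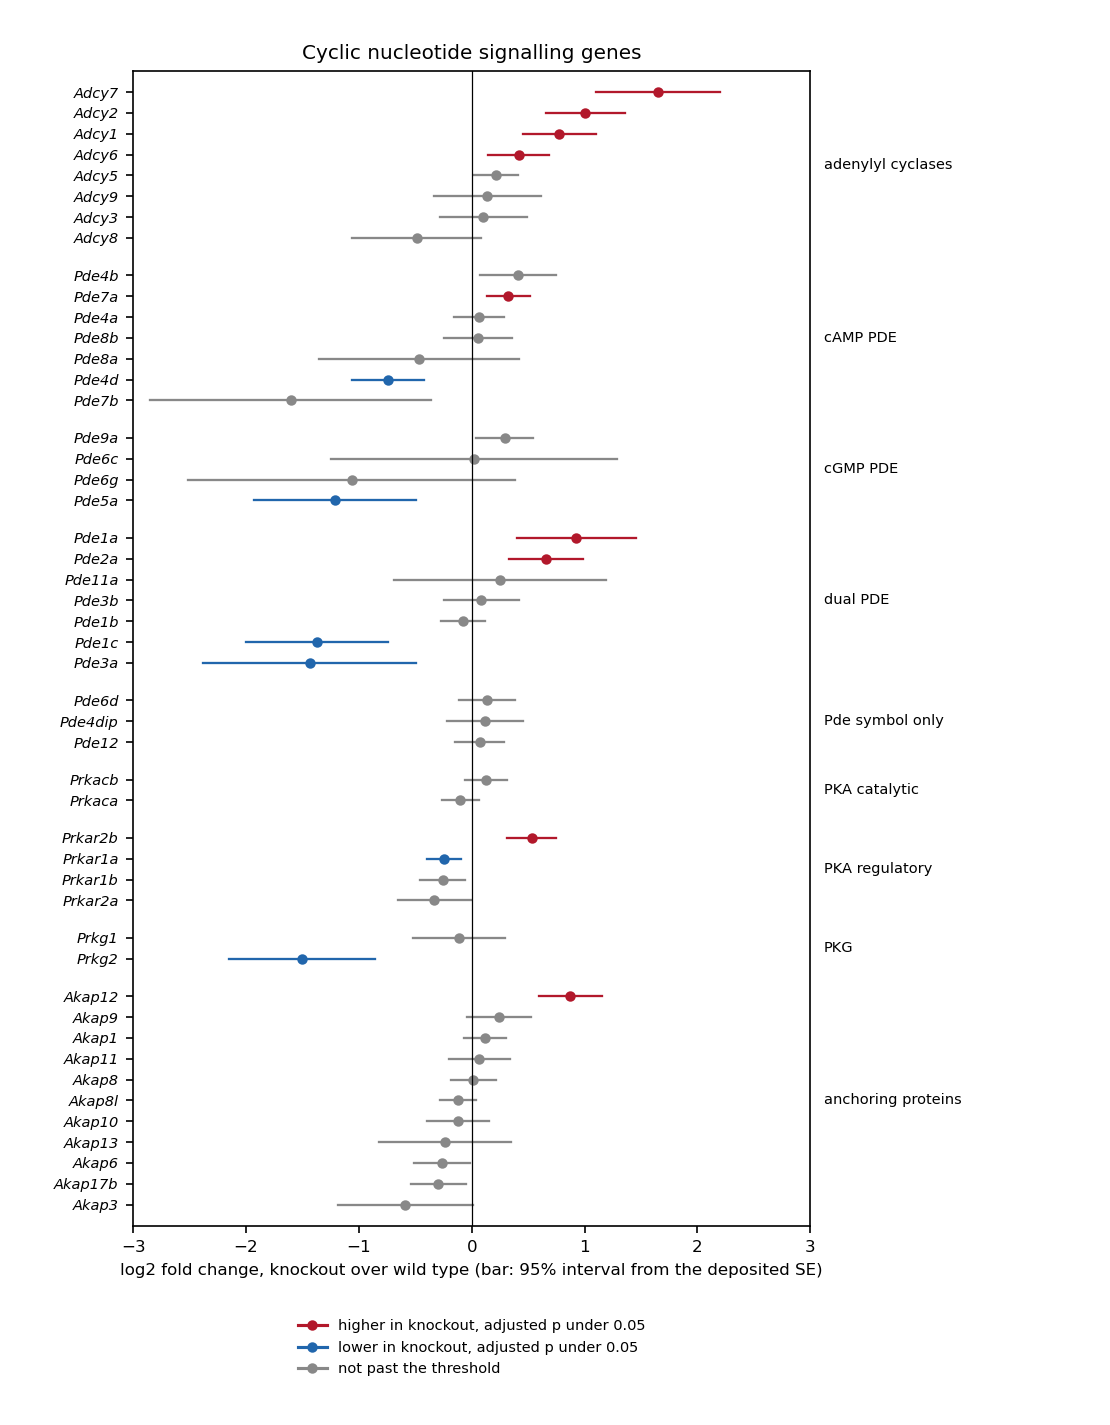
Log2 fold change of each of the 48 genes, knockout over wild type, with the 95% interval from the deposited SE, grouped by role. The adenylyl cyclases lie mostly to the right of 0, and the called phosphodiesterases split to both sides. Of the anchoring protein genes only Akap12 was called, and the lowest was Akap3 at -0.59.

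The adenylyl cyclases held 4 higher genes, none lower and 4 that did not pass, with 7 of 8 above 0 and a median log2 fold change of 0.32. Of all 15459 tested genes with a mean count of at least 10, 12.6% were higher, 12.3% lower and 7492 above 0. Adcy1, a cyclase stimulated by calcium and calmodulin, was by far the most abundant. Its gene spans 7063489 to 7178506 of chromosome 11 (GRCm38, plus strand). In the authors' deposited table its mean normalized count was 48238, which the fold change divides into 35547 in wild type and 60928 in the knockout. The rise was 1.71-fold (log2 fold change 0.78, SE 0.17, adjusted p = 6.46e-05). Adcy2 (chromosome 13, 68620043 to 68999541, minus strand), which G protein beta-gamma subunits stimulate, went from 1994 to 4009, a 2.01-fold rise (log2 1.01, SE 0.18, adjusted p = 6.51e-07). Adcy7 (chromosome 8, 88272403 to 88329962, plus strand), of the same regulatory class, was the scarcest cyclase of the 8. It went from 95.5 to 300.2, the largest fold rise of the group at 3.14-fold (log2 1.65, SE 0.28, adjusted p = 2.64e-07). Adcy6 (chromosome 15, 98589973 to 98610076, minus strand), which calcium inhibits, rose 1.33-fold from 1259 to 1678 (log2 0.42, SE 0.14, adjusted p = 0.0182).

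The other 4 cyclases did not pass. Adcy5, the second calcium-inhibited form, stood at a log2 fold change of 0.22 with an interval from 0.02 to 0.41 (adjusted p = 0.103). Adcy3, a cyclase known from neuronal cilia, stood at 0.10 and Adcy9 at 0.14, with intervals from -0.29 to 0.49 and from -0.34 to 0.61. Adcy8, the other cyclase stimulated by calcium and calmodulin, was the only one of the 8 with a value below 0, at -0.49 (interval -1.06 to 0.08, adjusted p = 0.236). Its interval did not overlap that of Adcy1, though the difference between the pair was not tested. Per kilobase of exon, the summed level of the 8 genes was 5036 in wild type and 7694 in the knockout, 1.53 times as high. Over all tested genes with a mean count of at least 10 the same ratio was 0.842. That sum is weighted towards the most abundant genes, and the median log2 fold change of the same genes was -0.02. Adcy1 alone made up 56.4% of the cyclase sum in wild type and 63.2% in the knockout. Such sums carry no error here, since the table gives none for combinations of genes.

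**Figure D2:**
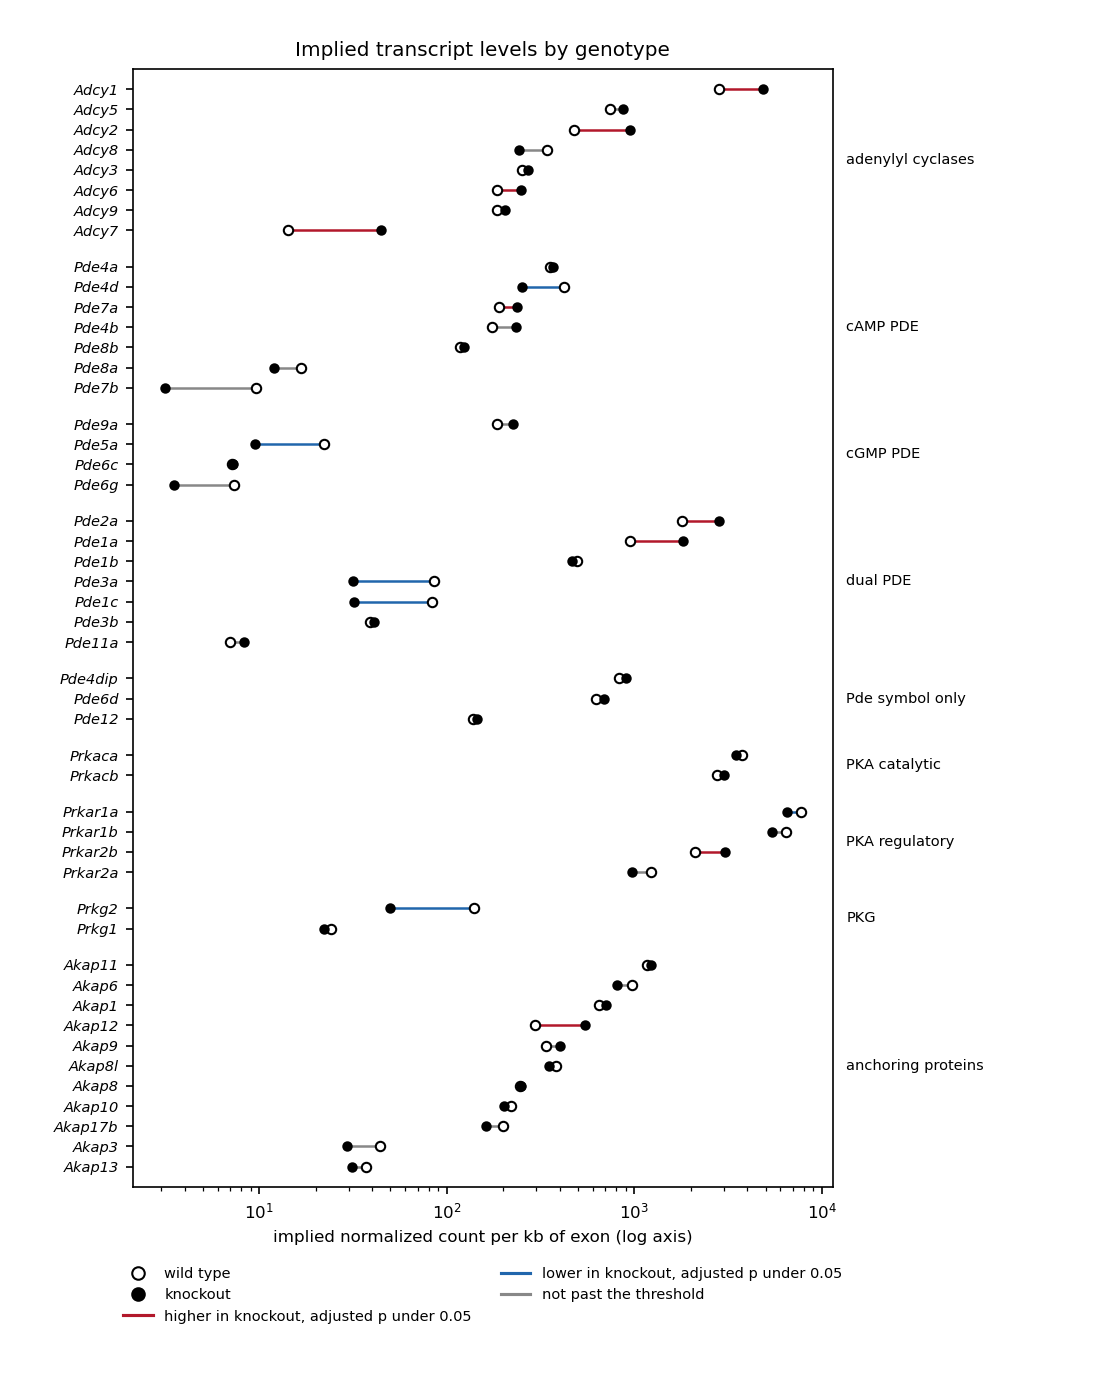
Implied normalized count per kilobase of exon in wild type (open circles) and knockout (filled circles) on a log axis, grouped by role, with the line coloured by the call. Adcy1 and the PKA subunits lie near the top of the range, and the calls lower in the knockout other than Pde4d and Prkar1a come from genes of low level, the highest of them Prkg2 at 140 per kilobase in wild type.

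To show the start regions of the 2 most abundant cyclases that rose, Adcy1 and Adcy2, and of the 2 PKA regulatory subunit genes that were called in opposite directions, Prkar1a and Prkar2b, sequence before a RefSeq transcription start is printed 5′ to 3′ (GRCm38.p6). Bases that GENCODE annotates as exon were left off. Capitals mark the full cAMP response element TGACGTCA, which is its own reverse complement, and the GC box GGGCGG on either strand, a site type bound by Sp1 factors. The GC box holds no A or T on either strand, so the motifs cannot overlap each other.
Adcy1, chr11:7063183-7063432, plus strand: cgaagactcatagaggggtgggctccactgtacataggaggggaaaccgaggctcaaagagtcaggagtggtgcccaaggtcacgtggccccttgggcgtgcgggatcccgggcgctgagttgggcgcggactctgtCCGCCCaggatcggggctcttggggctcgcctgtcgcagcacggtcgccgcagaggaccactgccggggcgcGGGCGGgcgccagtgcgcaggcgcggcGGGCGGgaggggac
Adcy2, chr13:68999542-68999791, minus strand: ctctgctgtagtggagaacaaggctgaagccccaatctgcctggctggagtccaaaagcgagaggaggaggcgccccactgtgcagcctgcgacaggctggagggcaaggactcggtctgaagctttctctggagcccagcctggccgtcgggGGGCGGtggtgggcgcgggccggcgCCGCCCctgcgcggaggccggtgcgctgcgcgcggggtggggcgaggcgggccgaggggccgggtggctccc
Prkar1a, chr11:109650699-109650920, plus strand: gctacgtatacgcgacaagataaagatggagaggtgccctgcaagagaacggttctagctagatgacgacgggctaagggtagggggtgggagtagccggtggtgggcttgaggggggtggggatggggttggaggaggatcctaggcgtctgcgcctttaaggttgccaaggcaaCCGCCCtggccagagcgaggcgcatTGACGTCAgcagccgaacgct
Prkar2b, chr12:32061297-32061527, minus strand: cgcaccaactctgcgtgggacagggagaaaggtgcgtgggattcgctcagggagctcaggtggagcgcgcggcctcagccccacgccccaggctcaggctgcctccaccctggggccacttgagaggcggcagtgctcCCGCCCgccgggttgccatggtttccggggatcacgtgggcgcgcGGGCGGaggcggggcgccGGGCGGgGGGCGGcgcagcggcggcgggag
RefSeq windows matched 38 of the 48 genes by symbol, with 79 starts, and the 250 bases before each start were searched. The full element occurred before 1 start of 1 gene, the Prkar1a start shown, at position -49, and in no other of the 6 Prkar1a windows. That is 2.63% of the 38 genes, against 3.08% of 11245 genes with a mean count of at least 10 and a window. By window it is 1.27% of the 79, against 2.54% of the windows of those 11245 genes and 1.55% of all 32851 windows. A GC box occurred in 27 of the 38 genes (71.1%), against 63.4% of those 11245 genes. By window the order was the other way, with 36 of the 79 (45.6%) against 56.4% of the windows of those genes, and 32.7% of all windows. A gene counted if any of its windows held the motif. The 38 genes had more windows per gene, with 79 in all, against 14425 for those 11245 genes. Shares by gene are therefore not like for like. GC content of the 250 bases was 71.2% for Adcy1, 73.2% for Adcy2, 61.6% for the Prkar1a start shown and 75.6% for the Prkar2b start shown. Adcy6, Adcy8, Pde7a, Pde6c, Pde6g, Pde9a, Pde3a, Pde3b, Prkg2 and Akap12 were not matched. A match is a run of letters and shows no binding.

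The phosphodiesterases were called in both directions, 3 higher and 4 lower of 18, with 11 not past the threshold and a median log2 fold change of 0.04. That is 38.9% called, against 24.9% of all tested genes with a mean count of at least 10. The 2 most abundant per kilobase, Pde2a and Pde1a, both rose. Summed per kilobase, the 18 genes stood at 4955 in wild type and 6689 in the knockout, a ratio of 1.35. Pde2a and Pde1a together held the larger part of that sum in both genotypes, with Pde2a at 36.1% and 42.2% and Pde1a at 19.2% and 27.1%. The identifier of the Pde2a row is annotated as Gm45837, and its level per kilobase uses the exon length of Gm45837. The rank of Pde2a, the sums, their ratio and the shares rest on that length.

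Of the 7 enzymes that break down both cyclic nucleotides, 2 rose and 2 fell. Pde1a, Pde1b and Pde1c are activated by calcium and calmodulin, and the 3 paralogs gave 3 different results in the authors' deposited table. Pde1a (chromosome 2, 79834453 to 80129458, minus strand) went from 5724 to 10880, a 1.90-fold rise (log2 fold change 0.93, SE 0.27, adjusted p = 0.00494). Pde1c (chromosome 6, 56069804 to 56569103, minus strand) went from 1665 to 645, 2.58-fold lower (log2 -1.37, SE 0.32, adjusted p = 3.21e-04). Pde1b stood at -0.08 with a narrow interval from -0.27 to 0.12. The intervals of the 3 paralogs do not overlap one another, and per kilobase the ratio of Pde1a to Pde1c was 11.5 in wild type and 56.3 in the knockout. Pde2a, which cyclic GMP stimulates, went from 7410 to 11685, a 1.58-fold rise (log2 0.66, SE 0.17, adjusted p = 0.00117). Its row carries an identifier that the annotation used here names Gm45837 (chromosome 7, 101410886 to 101512819, plus strand). The exons of Gm45837 coincide with those of the gene named Pde2a over 95.6% of their length, so how reads were divided between the 2 is uncertain. Levels per kilobase for this row use the exon length of Gm45837. Pde3a (chromosome 6, 141249269 to 141507448, plus strand), which cyclic GMP inhibits, went from 1089 to 402, 2.71-fold lower (log2 -1.44, SE 0.48, adjusted p = 0.0173), and its paralog Pde3b stood at 0.09 (interval -0.25 to 0.42). Pde11a, at a mean count of 39.6, stood at 0.25 with a wide interval from -0.69 to 1.19.

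Among the 7 enzymes specific for cyclic AMP, 1 rose and 1 fell. Pde4d (chromosome 13, 108449948 to 109953461, plus strand), of the rolipram-sensitive family, went from 5068 to 3030 in the authors' deposited table, 1.67-fold lower (log2 fold change -0.74, SE 0.16, adjusted p = 1.11e-04). Its paralogs did not pass. Pde4b stood at 0.41 (interval 0.07 to 0.75, adjusted p = 0.0735) and Pde4a at 0.06 (interval -0.16 to 0.28), both with intervals wholly above that of Pde4d. Pde4d was the most abundant of the 3 per kilobase in wild type, at 422 against 354 for Pde4a, and stood below Pde4a in the knockout, at 252 against 370. Pde7a (chromosome 3, 19223108 to 19311322, minus strand) rose 1.25-fold from 1471 to 1840 (log2 0.32, SE 0.10, adjusted p = 0.00763). Its paralog Pde7b had the lowest value of all 48 genes, at -1.60 (SE 0.64), and missed the threshold (adjusted p = 0.0525) at a mean count of 79.0. Pde8a stood at -0.47 and Pde8b at 0.06, the first at a mean count of 57.8 and with an interval from -1.36 to 0.42.

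Of the 4 genes of cyclic GMP phosphodiesterases, 1 fell. Pde5a (chromosome 3, 122728947 to 122859374, plus strand), the enzyme that sildenafil inhibits, went from 216.5 to 93.6 in the authors' deposited table, 2.31-fold lower (log2 fold change -1.21, SE 0.37, adjusted p = 0.00734). Pde9a, a high-affinity enzyme and the most abundant of the 4, stood at 0.29 (interval 0.04 to 0.54, adjusted p = 0.09). Genes of the photoreceptor enzyme were close to the minimum count. Pde6g, just inside it at 12.6, stood at -1.06 (SE 0.74) and Pde6c, at 21.5, at 0.02 (SE 0.65). Just outside the minimum were Pde6b at 7.27 and Pde6h at 6.05, with log2 fold changes of -0.51 (SE 1.00) and -2.06 (SE 0.70). Pde6h would have been called lower (adjusted p = 0.0188). The others left out by the minimum were Pde4c, Adcy10, Pde6a, Adcy4 and Akap14.

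3 further genes carry a Pde symbol although their products are not cyclic nucleotide phosphodiesterases, and none passed. Pde6d, whose product binds prenylated proteins, stood at 0.13, Pde12, a mitochondrial enzyme that trims RNA tails, at 0.07 and Pde4dip, the centrosome and Golgi protein myomegalin, at 0.12. Their intervals lay between -0.22 and 0.45.

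**Figure D3:**
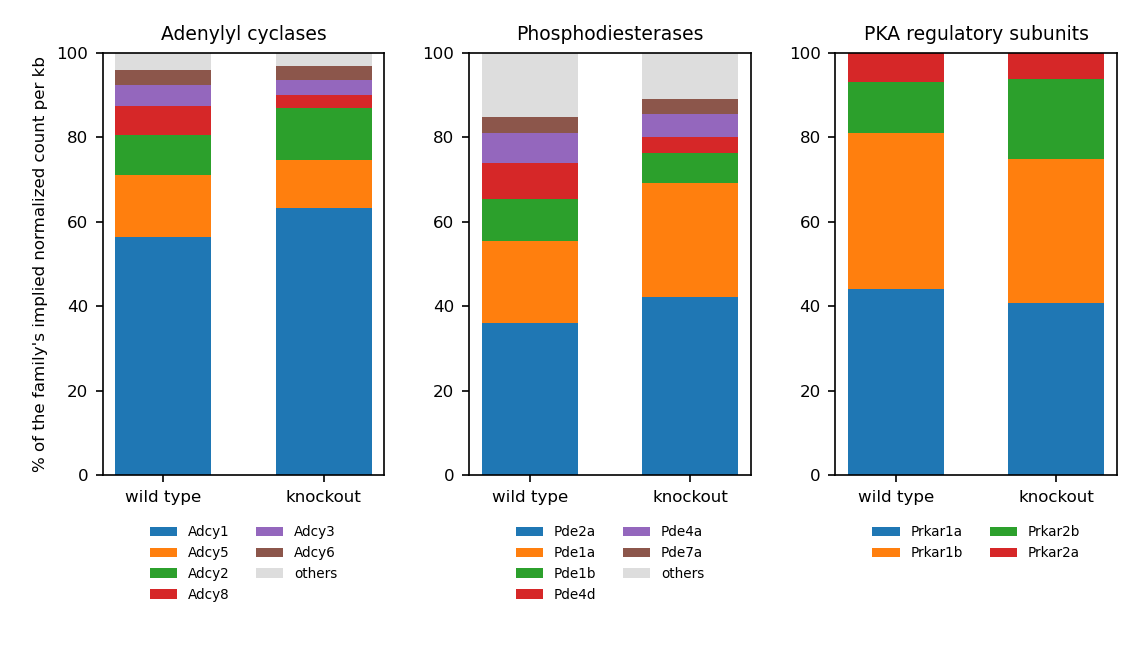
Share of each gene in the implied normalized count per kilobase of its family, for wild type and knockout, with the 6 largest genes named in each of the first 2 panels. Adcy1 widens from 56.4% to 63.2% of the cyclases, Pde1a from 19.2% to 27.1% of the phosphodiesterases, and Prkar2b from 12.0% to 19.1% of the PKA regulatory subunits.

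Neither PKA catalytic subunit gene was called, while the regulatory subunit genes were called in both directions. On the log2 scale Prkaca stood at -0.10 (SE 0.08, adjusted p = 0.415) and Prkacb at 0.13 (SE 0.09, adjusted p = 0.36) in the authors' deposited table. Their intervals, from -0.26 to 0.06 and from -0.06 to 0.31, leave room only for small changes. Summed per kilobase the pair stood at 6481 in both genotypes.

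Prkar2b, the type II regulatory subunit that is prominent in brain, rose. Its gene spans 31958476 to 32061296 of chromosome 12 (minus strand), and it went from 7696 to 11109, a 1.44-fold rise (log2 fold change 0.53, SE 0.11, adjusted p = 4.91e-05). Prkar1a, a widely expressed type I subunit (chromosome 11, 109649405 to 109669656, plus strand), fell by little, from 33278 to 28067 or 1.19-fold (log2 -0.25, SE 0.08, adjusted p = 0.00939). The other 2 regulatory genes had values near that of Prkar1a without passing. Prkar1b, a type I subunit of neurons, stood at -0.26 (SE 0.10, adjusted p = 0.0542) and Prkar2a, the second type II subunit, at -0.33 (SE 0.16, adjusted p = 0.14). The interval of Prkar2b, from 0.31 to 0.75, lies wholly above those of the other 3, whose upper bounds are all below 0. These differences between genes were not tested. Per kilobase, the ratio of type I to type II regulatory transcripts was 4.25 in wild type and 2.96 in the knockout, and that of regulatory to catalytic transcripts was 2.70 and 2.46.

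The cGMP-dependent kinases differed from each other. Prkg2, whose product is held at membranes, went from 753 to 266, 2.84-fold lower in the authors' deposited table (log2 fold change -1.50, SE 0.33, adjusted p = 9.97e-05). Its gene spans 98929773 to 99037351 of chromosome 5 (minus strand). Prkg1, the soluble form, was at a mean count of 251 and stood at -0.12 (SE 0.21, adjusted p = 0.748). The intervals, from -2.15 to -0.86 for Prkg2 and from -0.52 to 0.29 for Prkg1, do not overlap. Per kilobase the level of Prkg2 was 5.84 times that of Prkg1 in wild type and 2.23 times in the knockout.

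Of the 11 anchoring protein genes, 1 rose and 10 did not pass. That is 9.09% called, against 24.9% of all tested genes with a mean count of at least 10. Akap12, the scaffold also called gravin (chromosome 10, 4266380 to 4359470, plus strand), had the smallest adjusted p of all 48 genes. It went from 1915 to 3512, a 1.83-fold rise in the authors' deposited table (log2 fold change 0.87, SE 0.14, adjusted p = 5.58e-08). Of the genes that the rule leaves out, Akap7 stood at 1.57 (SE 0.17, adjusted p = 1.47e-17). The others did not pass, with Akap5 at 0.01 (SE 0.20, adjusted p = 0.979) and the phosphodiesterase gene Pde10a at 0.23 (SE 0.15, adjusted p = 0.282). Akap6, which anchors PKA at the nuclear envelope, had the highest mean count of the 11, at 13237, and stood at -0.26 (adjusted p = 0.122). Akap11 was the highest per kilobase, at 1195, and stood at 0.07 (adjusted p = 0.777). Akap1 of the mitochondrial outer membrane, at 0.12, and Akap9 of the Golgi and centrosome, at 0.24, lay above 0. Akap8 and Akap8l, which are nuclear, were at 0.01 and -0.12, Akap10 at -0.12, and Akap13 at -0.24. The lowest were Akap17b at -0.29 (adjusted p = 0.0755) and Akap3, known from sperm, at -0.59 (adjusted p = 0.163, mean count 115). The widest intervals were those of Akap3, from -1.19 to 0.01, and Akap13, from -0.83 to 0.34.

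Of the 33 genes that did not pass, 8 had a 95% interval that excluded 0 before correction for the number of genes, 3 above it (Adcy5, Pde4b, Pde9a) and 5 below (Pde7b, Prkar1b, Prkar2a, Akap6, Akap17b). In 26 of the 33 the interval lay within a log2 change of 1 either way. The 5 genes with a mean count under 100, which are Pde7b, Pde8a, Pde6c, Pde6g and Pde11a, had SEs from 0.45 to 0.74, against a median of 0.14 over the 43 others, and none of the 5 was called.

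**Figure D4:**
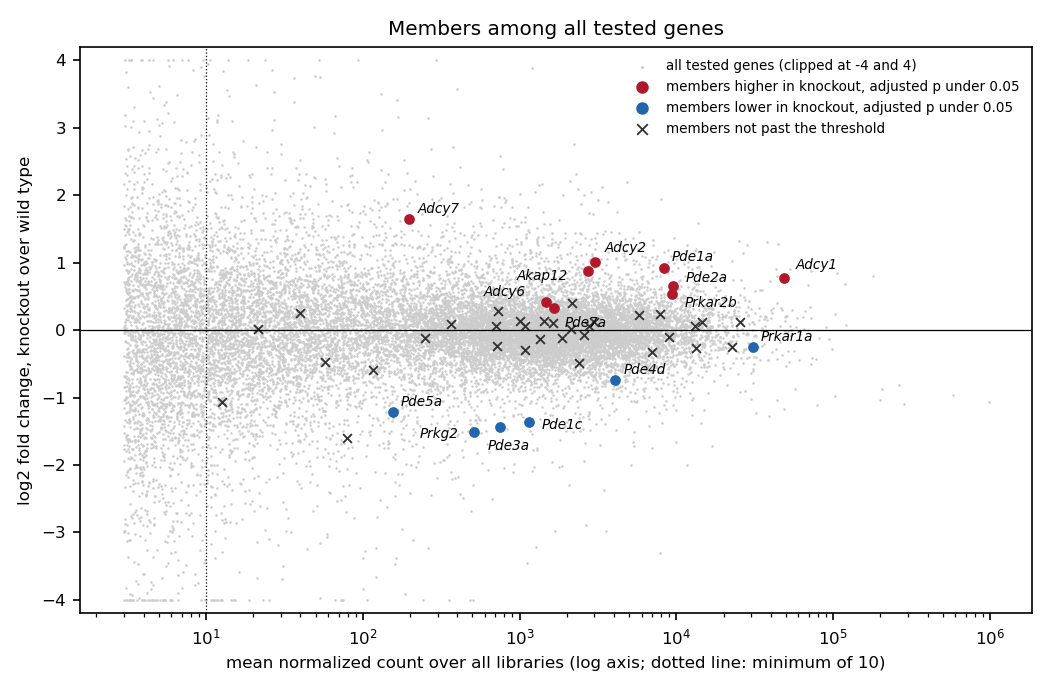
Log2 fold change against mean normalized count over all libraries (log axis) for every tested gene (grey) and the 48 genes (coloured by call). All 15 called genes lie above a mean count of 100, and the 48 genes run from -1.60 to 1.65.

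Other genes of the pathway, from a list that runs from G proteins to cyclic nucleotide targets, were called more often higher than lower. Of 40 listed genes, 30 had a mean count of at least 10, of which 10 were higher, 3 lower and 17 not past the threshold. That is 43.3% called, against 24.9% of all genes at that count, with a median log2 fold change of 0.27. Over all genes at that count 12.6% were higher and 12.3% lower. The list was chosen with earlier results of these data known, so its share is a description only and was not tested. Among 7 G protein alpha subunit genes 3 rose and none fell. Gnai2, an inhibitory subunit, rose 1.43-fold (log2 0.51, SE 0.09, adjusted p = 3.35e-07) and Gnao1, the abundant neuronal subunit, 1.23-fold (log2 0.30, SE 0.09, adjusted p = 0.00423) in the authors' deposited table. Gnal, the stimulatory subunit of olfactory and striatal neurons, stood at 0.12 (SE 0.12). Gnas, the stimulatory subunit of most cells, stood at -0.09 (SE 0.17), and its locus makes several overlapping transcripts, so that its count is uncertain.

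On the cyclic GMP side, 12 genes of guanylyl cyclases and natriuretic peptide receptors were listed. Of the 7 with a mean count of at least 10, 4 were called higher and none lower. Over all genes at that count 12.6% were higher and 12.3% lower. The 3 not called were Gucy1a2 at -0.13 (SE 0.22), Gucy1b2 at -0.69 (SE 0.58) and Gucy2e at 0.59 (SE 0.51). The paired subunits of the nitric oxide receptor both rose in the authors' deposited table. Gucy1b1 rose 1.46-fold (log2 0.54, SE 0.11, adjusted p = 4.45e-05) and Gucy1a1 1.44-fold (log2 0.52, SE 0.17, adjusted p = 0.0106). Npr2, the receptor of C-type natriuretic peptide, rose 1.29-fold (log2 0.36, SE 0.11, adjusted p = 0.00824). Npr3, the clearance receptor, which makes no cyclic GMP, went from 415 to 1315, a 3.17-fold rise (log2 1.66, SE 0.26, adjusted p = 2.66e-08). Nos1, the neuronal nitric oxide synthase gene, stood at 0.50 (SE 0.24, adjusted p = 0.116).

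Among targets of cyclic AMP other than PKA, the exchange factors were called in opposite directions. In the authors' deposited table Rapgef3 rose from 89.3 to 236 (log2 1.40, SE 0.33, adjusted p = 3.01e-04) and Rapgef4, the abundant neuronal form, fell from 7450 to 5199 (log2 -0.52, SE 0.12, adjusted p = 3.07e-04). Their intervals, from 0.76 to 2.05 and from -0.76 to -0.28, do not overlap. Of the 3 Popeye genes, which encode cAMP-binding membrane proteins, 2 fell. Bves was 6.90-fold lower (log2 -2.79, SE 0.55, adjusted p = 1.47e-05) with a mean count of 87.6 over the libraries, and Popdc3 2.75-fold lower (log2 -1.46, SE 0.27, adjusted p = 3.29e-06). The remaining higher genes, at adjusted p values from 0.0167 to 0.0202 and named outside the naming rule, were the PKA inhibitor gene Pkig, the inhibitory subunit gene Gnaz and Ppp1r1b, which encodes the PKA target DARPP-32.

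**Figure D5:**
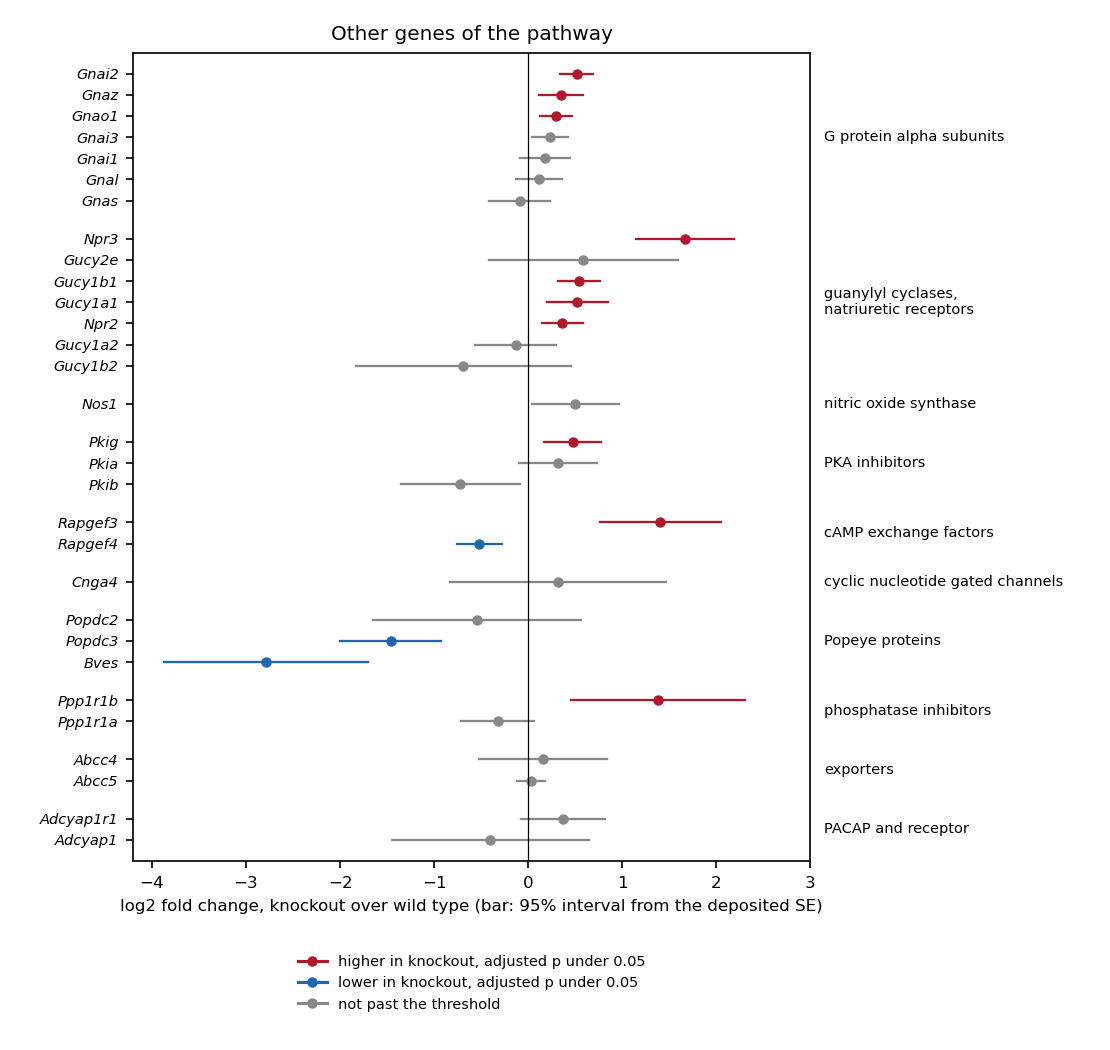
Log2 fold change of 30 other genes of the pathway, knockout over wild type, with 95% intervals from the deposited SE, grouped by role. The called G protein and guanylyl cyclase or receptor genes lie to the right of 0, Rapgef3 and Rapgef4 on opposite sides, and Popdc3 and Bves to the left.

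Markers of cell types differed between the genotypes beside these results, and their part in them was not tested. Summed implied counts of 6 interneuron markers were 99357 in wild type and 52412 in the knockout, with 4 lower, none higher and all 6 below 0. Those of 5 neuron markers were 217351 and 230340, with 2 higher, none lower and 2 of the 5 below 0. The rise of that sum rests on Tubb3, at 36839.9 and 61432.5. The 2 below 0 were Syt1, at 57106 and 45915, and Snap25, at 32495 and 27639. Of 7 astrocyte markers 2 were higher, none was lower and all 7 were above 0 (10520 and 20466). Slc1a2 made up most of these sums, at 9274 and 17705. Of 8 microglia markers, 7 of them tested, 4 were lower, none was higher and 7 were below 0 (984 and 219). Most of these sums came from Cd68, at 835 and 171. Of 6 endothelial and mural markers 3 were lower, none was higher and 5 were below 0 (2046 and 1307). Here the largest part was Rgs5, at 1525 and 1111. Of 7 oligodendrocyte lineage markers 1 was higher, none was lower and 5 were above 0 (1579 and 1863, of which Mbp gave 1112 and 1227). Of 5 fibroblast markers 1 was higher, 1 lower and 3 below 0, with a median log2 fold change of -0.14. Their sums of 759 and 1510 rest on Dcn, at 437 and 1261. The lower fibroblast marker, Pdgfrb, is on both lists and is also among the 3 lower endothelial and mural markers. Of 4 markers of dividing progenitors 1 was higher, none was lower and all 4 were above 0, and their sums of 148 and 336 rest largely on Eomes, at 31.6 and 181. None of the listed markers was at 0, with P2ry12 of microglia the lowest at a mean count of 1.52. The minimum count of 10 was not applied to markers. Their lower calls include Tyrobp of microglia at a mean count of 9.85 and Cldn5 of endothelium at 3.00.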

How the data were processed

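RNA of 8 libraries, 4 per genotype, was sequenced from polyadenylated RNA with a stranded library kit, per the labels' protocols. The data are 1 table of the authors' comparison. The submitters' processing notes name DESeq2, DESeq and mm10, without versions or roles. For the aligner, counting tool, use of strand and annotation, nothing is given in the sources used here. Per the file headers, the table holds DESeq2's signal per gene, a mean normalized count over all libraries. Fold changes and SEs were deposited as log2 values. A Wald score was also deposited, checked to equal fold change over SE (largest gap 2.86e-07), and the deposited p-value and its Benjamini-Hochberg adjustment cover 18085 tested genes. Mean counts summed to 3.96e+07. Depth per library is unknown, so no count model was run.

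Every sign was turned so that H2bc21 is lower in the knockout. Implied levels solve the mean and the fold change for equal group sizes. Intervals are 95% normal intervals. Identifiers were matched to GENCODE M21 (GRCm38, the assembly of mm10) for 26032 genes and all 48 members. Lengths per kilobase refer to merged annotated exons, and promoters are from RefSeq (GRCm38.p6). The members and gene lists were chosen with earlier results of these data known, so no test over a list was made. Named genes are all called members, the most abundant member and, with none called, the smallest adjusted p of each role, the members by symbol only, those next to the minimum count, and up to 10 called pathway genes. Other members are named to account for all. Alternative nulls and adjustments were tested on simulated data with a far smaller share of changed genes than the 21.8% of tested genes called here. Such data cannot show how the fitted null behaves when many genes change. Calculations used Python 3.11.15, numpy 2.4.6, pandas 2.3.3, scipy 1.17.1, statsmodels 0.14.6 and matplotlib 3.10.9.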

Additional observations from a re-analysis of the deposited data

How the results depend on the processing

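Under a t distribution with 6 degrees of freedom for the deposited Wald statistic, 0 members were called higher and 0 lower (adjusted p of the called members 0.0653 to 0.154; 17 at an unadjusted p under 0.05, against 23 with the deposited DESeq2 p), and 0 pathway genes higher and 0 lower (13 at an unadjusted p under 0.05). Under a null fitted to the Wald statistics (scale 1.96, against 1 for the normal), the counts were again 0 and 0 for members (adjusted p 0.117 to 0.824; 9 at an unadjusted p under 0.05) and 0 and 0 for pathway genes (7 at an unadjusted p under 0.05). At an adjusted p of 0.01, pathway genes called higher were 6 instead of 10, while members gave 8 higher and 5 lower. Adjusting over genes with a mean count of at least 10 alone gave 9 higher and 8 lower members, adding Pde7b and Prkar1b. A minimum count of 100 kept the counts of members and pathway genes within 1.5 times, as did, for members, no minimum and leaving out Pde6d, Pde12 and Pde4dip. The last 2 were not run for pathway genes. Centring on the median of all genes (-0.02) turned none of the 28 called members and pathway genes. No paired analysis was possible because the deposited table holds no values per library. For the same reason other normalizations and leaving out single libraries were not run. Genes under a mean count of 100 had intervals too wide to show moderate changes.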

Other observations

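On chromosome 3, which carries the targeted gene, lie 4 of the 48 genes. Pde4dip lies 1.47 Mb from H2bc21 and stood at a log2 fold change of 0.12 (SE 0.17) in the authors' deposited table, whereas the called genes Pde5a and Pde7a lie 26.5 and 76.9 Mb away and Prkacb 50.5 Mb. Members called lower had a median span of 194 kb and those called higher 102 kb. The latter is the span of Gm45837, the annotated name of the Pde2a identifier. Over all tested genes with a mean count of at least 10, the same medians were 20.8 kb for lower and 40.3 kb for higher. Exons of some members coincide with those of genes on the other strand in the annotation, which matters if reads were counted without strand. The largest shares of exon length were 8.92% for Adcy6, 5.82% for Pde3a and 4.49% for Adcy2 among called members, and 22.1% for Adcy3, which overlaps Cenpo.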
